A study of Homo sapiens with 6 samples.

Results

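The genes for receptors of acetylcholine, serotonin, dopamine and the adrenergic transmitters were followed in HEK293T cells with and without valproic acid (VPA). The rule for the members used the gene symbol alone and took the nicotinic (CHRNA, CHRNB, CHRND, CHRNE, CHRNG), muscarinic (CHRM), serotonin (HTR), dopamine (DRD) and adrenergic (ADRA, ADRB) receptor genes. They numbered 52 of the 47470 genes listed in the count data. HEK293T is a line of human embryonic kidney origin with the SV40 large T antigen, and VPA is an inhibitor of histone deacetylases, the enzymes that remove acetyl groups from histones. RNA was sequenced from 3 libraries of untreated cells, whose genotype is labelled WT, and from 3 libraries of the same line after 1 day in 1 mM VPA. The labels give numbered replicates but no separate cultures, so the p-values measure the spread between these libraries, which may be technical.

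These receptors carry the signals of the small amine transmitters and of acetylcholine. Nicotinic receptors and the HTR3 serotonin receptors are cation channels assembled from several subunits that open when the transmitter binds. The muscarinic, dopamine, adrenergic and remaining serotonin receptors are single proteins that pass the signal to G proteins: Gq activates phospholipase C, Gs stimulates adenylyl cyclase and Gi inhibits it. They are best known from neurons, skeletal and smooth muscle, and the heart.

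Counts on genes totalled between 18622267 and 18828495 per library, so depth differed little. Normalized counts below are scaled by TMM to the mean library, log2 fold changes are VPA-treated over untreated, and adjusted p-values are from edgeR's quasi-likelihood test over 15298 tested genes. Up-regulated means an adjusted p under 0.05 together with a log2 fold change of 1 or more. Markers of the HEK293T line (VIM, KRT8, KRT18, CDH2, PAX2, NEFL, NEFM and GATA3) were counted in all libraries, 8 of 8. All 8 were tested and 3 were up-regulated, and at the adjusted p alone 5 were higher and 2 lower. Their summed level was 19565 to 20238 normalized counts in untreated and 22515 to 23834 in VPA-treated libraries. Beside these marker calls, 12.0% of all tested genes were up-regulated, and at the adjusted p alone 32.9% were higher and 30.0% lower. Markers of other cell types were read in the same way and beside the same shares. Of 8 neuron markers 5 were tested and 5 were up-regulated, with a summed level of 358 to 395 normalized counts in untreated and 957 to 1001 in VPA-treated libraries, while ELAVL3 had at most 1 count in any library. Of 6 fibroblast markers 4 were tested and up-regulated (summed level 461 to 522, then 1562 to 1742), with COL1A2 and THY1 at no more than 1 count. Of 5 blood markers 1 was tested and 0 were called (15.5 to 26.2, then 28.9 to 40.2), with PTPRC, CD3E and HBB at 0 counts in the untreated libraries. Of 5 skeletal muscle markers 3 were tested, MYOD1 was up-regulated and ACTA1 lower, and the summed level was 137 to 150.1 and 160.03 to 166. The part of such cells in the receptor results was not tested, and in bulk RNA fewer cells of a type and less RNA per cell cannot be told apart.

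VPA-treated cells held more RNA of most receptor genes that could be measured. Of the 52 genes, 10 had no count in any library, 23 had too few counts to be tested, and 19 were tested. Of these 19, 14 were up-regulated, 3 more were higher below the fold threshold, and 0 were down-regulated. Among all tested genes, 12.0% were up-regulated and 0.503% down-regulated. At the adjusted p alone 17 of the 19 were higher and 0 lower, against 32.9% and 30.0% of all tested genes. The median log2 fold change of the 19 was 1.68, and that of all tested genes was 0.0058. In 18 of the 19 every VPA-treated library lay above every untreated one, which held for 34.8% of all tested genes.

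Most of these genes had few counts, and the filter matters for reading the counts above. It asked for about 10 counts, or 0.534 CPM, in 3 libraries, and HTR3A, HTR1B, ADRA2B and ADRB1 passed it only through the VPA-treated libraries. Such genes had to differ between the conditions to be tested at all. For them the lack of overlap between the groups followed largely from the filter, and they are among the 18 of 19 given above. In 11 of the 19 every untreated library also reached this level. In the other 4, CHRNB4, CHRM4, HTR1D and HTR7, only 1 or 2 untreated libraries did. These 4 also needed the VPA-treated libraries to be tested. Of the 10 tested receptor genes with a mean under 50 normalized counts 9 were up-regulated, against 29.4% of all tested genes in that range. All the genes just named for the filter lie in this range. Its receptor calls therefore rest largely on genes that needed the VPA-treated libraries to be tested. Of the other 9, with means of 50 or more, 5 were up-regulated, against 7.56%.

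**Figure D1:**
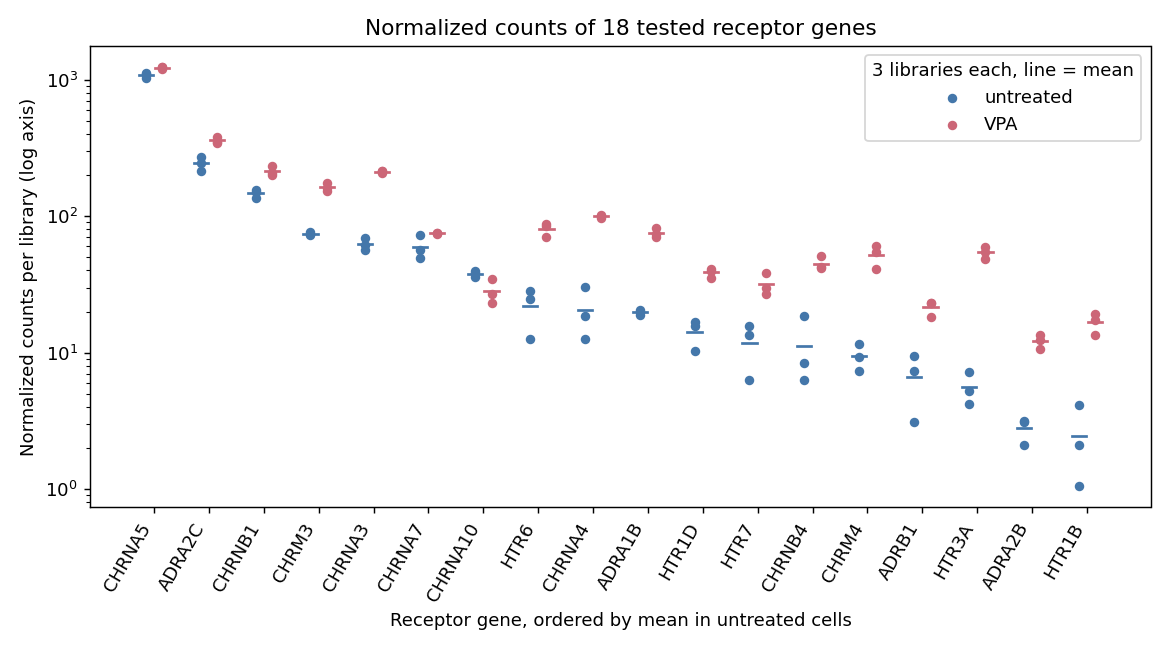
Normalized counts (log axis) of 18 of the 19 tested receptor genes in each of the 3 untreated and 3 VPA-treated libraries, with a line at each mean, ordered by the mean in untreated cells. All genes but CHRNA10 have their 3 VPA points above their 3 untreated points, and the gap is widest for HTR3A, at 5.56 and 54.4 normalized counts on average.

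The neuronal nicotinic subunits showed the widest range of responses. Of 11 genes 10 were counted and 6 tested, 3 were up-regulated (CHRNA3, CHRNA4 and CHRNB4), CHRNA5 was higher, and CHRNA7 and CHRNA10 did not pass. Over all tested genes the share up-regulated was 12.0%. The alpha subunits carry the main face of the acetylcholine site, and the beta subunits and CHRNA5 complete the channel. Their summed level was 1222 to 1311 normalized counts in untreated and 1677 to 1741 in VPA-treated libraries.

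CHRNA5, CHRNA3 and CHRNB4 are neighbours on chromosome 15 whose subunits assemble together in the ganglionic nicotinic receptor. CHRNA3 had 61.1, 56.5 and 69.3 normalized counts in untreated and 206, 214 and 215 in VPA-treated libraries. With no overlap between the groups, CHRNA3 rose 3.39-fold (log2 fold change 1.76, SE 0.11, adjusted p = 1.28e-11 in edgeR). CHRNB4 had 18.6, 8.37 and 6.3 normalized counts in untreated and 42.2, 41.4 and 50.7 in VPA-treated libraries. Untreated replicate 1 stood above the other two but still below every VPA-treated library, and CHRNB4 rose 3.99-fold (log2 fold change 2.0, SE 0.28, adjusted p = 1.94e-06 in edgeR). Without that library its log2 fold change was 2.58. CHRNA5 had 1024, 1100.1 and 1117 normalized counts in untreated and 1204, 1230.1 and 1242 in VPA-treated libraries. Again the groups did not overlap, but the step was small at 1.13-fold (log2 fold change 0.18, SE 0.049, adjusted p = 0.00296 in edgeR). CHRNA5 lies at chr15:78565520-78595269 on the plus strand and CHRNA3 at chr15:78593052-78620996 on the minus strand (GRCh38.p14), so their 3′ ends share 2218 bases. The strand setting of the counting is not given in the sources used here, and reads from the shared stretch may be set aside or misassigned. CHRNB4, at chr15:78624111-78661641 on the minus strand, starts 3114 bases beyond CHRNA3 and does not overlap it.

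The promoter windows of CHRNA3 and CHRNB4 are shown because both neighbours were up-regulated and both hold the GC box, GGGCGG on either strand, a letter pattern bound by factors of the Sp family. Each window is the RefSeq sequence on GRCh38.p14 from 250 bases before to 50 after an annotated transcript start, on the gene's strand, and capitals mark GGGCGG or its reverse complement. CHRNA3 has 4 matches at chr15:78620947-78621246 and CHRNB4 has 3 at chr15:78641161-78641460, both on the minus strand, counting overlapping matches. The CHRNB4 window belongs to a start inside the gene coordinates given above, not to their outer end.
CHRNA3: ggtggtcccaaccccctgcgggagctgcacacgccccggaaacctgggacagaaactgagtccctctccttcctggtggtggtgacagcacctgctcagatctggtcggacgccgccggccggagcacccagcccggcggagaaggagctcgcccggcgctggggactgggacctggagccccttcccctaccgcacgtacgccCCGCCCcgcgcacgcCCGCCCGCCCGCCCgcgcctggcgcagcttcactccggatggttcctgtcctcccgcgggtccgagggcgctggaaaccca
CHRNB4: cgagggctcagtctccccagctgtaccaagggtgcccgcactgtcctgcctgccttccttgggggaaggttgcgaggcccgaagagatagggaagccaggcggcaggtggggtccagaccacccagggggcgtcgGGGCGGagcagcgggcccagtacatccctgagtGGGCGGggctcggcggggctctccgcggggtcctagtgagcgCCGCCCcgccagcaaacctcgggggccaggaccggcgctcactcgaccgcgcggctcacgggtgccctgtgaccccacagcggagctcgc

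CHRNA4 encodes the alpha subunit that pairs with CHRNB2 in the most common nicotinic receptor of the brain. It had 18.6, 12.6 and 30.4 normalized counts in untreated and 103, 97.3 and 101 in VPA-treated libraries. The groups lay far apart, and CHRNA4 rose 4.85-fold (log2 fold change 2.28, SE 0.20, adjusted p = 1.69e-09 in edgeR). An antisense lncRNA overlaps it in the annotation. CHRNB2 itself had 2, 4 and 2 counts in untreated and 0, 2 and 1 in VPA-treated libraries. The 2 groups of CHRNB2 counts met at 2 counts, and after normalization every VPA-treated value lay below the untreated ones. At these low counts the ratio of 0.345 had a counting interval of 0.0589 to 1.44.

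CHRNA7, which forms channels of its own, had 56.9, 72.2 and 49.3 normalized counts in untreated and 75.7, 75.1 and 73.7 in VPA-treated libraries. The groups did not overlap, yet the log2 fold change of 0.33 (SE 0.15) missed the threshold with an adjusted p of 0.0608 in edgeR. It passed with 3 other scalings, at an adjusted p of 0.00148 with ribosomal protein genes, 0.0125 with library totals and 0.0269 with the upper quartile, and not with DESeq2 size factors, at 0.0701. It also passed with at least 10 counts asked of every library, at 0.0462, and without untreated replicate 2, at 0.0157. It did not pass with DESeq2, at an adjusted p of 0.291, or in edgeR with no filter, at 0.108. Leaving out any other single library gave 0.0955 to 0.278 in edgeR, so it did not pass there either. Part of the CHRNA7 sequence is repeated in CHRFAM7A, a fusion gene on the same chromosome, so reads between them may have been set aside or shared. CHRFAM7A had 83.5 ± 7.6 normalized counts without and 118 ± 4.56 with VPA (SD, n = 3 each; adjusted p = 0.00106 in edgeR). CHRNA10, a subunit of the cochlear hair cell receptor, was the only tested receptor gene with a negative value. It had 38.3, 39.8 and 35.7 normalized counts in untreated and 26.8, 23.1 and 34.5 in VPA-treated libraries, with a log2 fold change of -0.43 (SE 0.20, adjusted p = 0.0689 in edgeR). Its 3 VPA-treated libraries all lay below the untreated ones, the nearest values being 34.5 and 35.7. Without VPA replicate 3 the adjusted p was 0.0288 and the log2 fold change -0.60. Without any other single library the adjusted p was 0.0748 to 0.243 in edgeR, and with all libraries DESeq2 gave 0.257. The end of CHRNA10 overlaps NUP98 on the same strand by 302 bases. NUP98 was far better counted, at 5321 ± 211 normalized counts without and 4218 ± 57.5 with VPA (SD, n = 3 each). It was lower with VPA (log2 fold change -0.34, adjusted p = 3.06e-07 in edgeR). The part of shared reads in the CHRNA10 value was not tested. CHRNA9, the partner of CHRNA10, was too low to be tested, with 1 count in each untreated library and 15, 6 and 20 counts in the VPA-treated ones. All 3 VPA-treated libraries were above the untreated ones, a ratio of 12.6 with a counting interval of 4.01 to 63.4.

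The muscle nicotinic subunits build the receptor of the neuromuscular junction. All 5 were counted, but only CHRNB1 was tested, with 155, 151 and 136 normalized counts in untreated and 200.3, 207 and 233 in VPA-treated libraries. Without overlap between conditions, CHRNB1 rose 1.45-fold (log2 fold change 0.53, SE 0.097, adjusted p = 6.36e-05 in edgeR), short of the fold threshold. CHRNE had 2, 7 and 2 counts in untreated and 8, 5 and 3 in VPA-treated libraries, groups that overlap. CHRNA1, CHRND and CHRNG had at most 2 counts in any library, so the genes for the receptor's other subunits were at or near 0 in both conditions.

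The muscarinic receptors gave 2 up-regulated genes of 2 tested, among 5 listed and 4 counted, beside 12.0% of all tested genes. CHRM3, a Gq-coupled receptor of glands and smooth muscle, had 73.5, 76.4 and 72.4 normalized counts in untreated and 152, 161 and 174 in VPA-treated libraries. The untreated libraries were tight and lay below all treated ones, a 2.19-fold increase (log2 fold change 1.13, SE 0.11, adjusted p = 1.99e-08 in edgeR). CHRM4, a Gi-coupled receptor best known from the striatum, had 9.32, 7.33 and 11.5 normalized counts in untreated and 60.4, 54.9 and 41.2 in VPA-treated libraries. The groups did not overlap, and CHRM4 rose 5.49-fold (log2 fold change 2.46, SE 0.26, adjusted p = 3.38e-08 in edgeR). Its gene shares 49 bases with MDK on the opposite strand, which is far better counted at 2042 ± 54.6 and 2235 ± 199.6 normalized counts (SD, n = 3 each). The antisense genes CHRM3-AS1 and CHRM3-AS2, within CHRM3, had 0 and 1 counts in all. CHRM1 had 1 count and CHRM5 had 2 over all libraries, and CHRM2, the receptor of the heart, had 0.

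The windows of the 2 up-regulated muscarinic genes are shown side by side because they differ in the pattern. That of CHRM4, at chr11:46391727-46392026 on the minus strand, has 5 matches of GGGCGG and a GC content of 78.3%. That of CHRM3, at chr1:239386318-239386617 on the plus strand, has 0 and a GC content of 66.0% (RefSeq, GRCh38.p14, capitals as before).
CHRM4: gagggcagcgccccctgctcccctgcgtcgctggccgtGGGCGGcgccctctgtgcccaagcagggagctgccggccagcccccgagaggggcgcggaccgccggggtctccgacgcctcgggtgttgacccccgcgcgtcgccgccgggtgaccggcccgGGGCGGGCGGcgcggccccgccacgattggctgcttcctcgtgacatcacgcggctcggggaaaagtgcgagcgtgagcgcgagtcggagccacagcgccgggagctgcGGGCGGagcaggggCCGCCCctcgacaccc
CHRM3: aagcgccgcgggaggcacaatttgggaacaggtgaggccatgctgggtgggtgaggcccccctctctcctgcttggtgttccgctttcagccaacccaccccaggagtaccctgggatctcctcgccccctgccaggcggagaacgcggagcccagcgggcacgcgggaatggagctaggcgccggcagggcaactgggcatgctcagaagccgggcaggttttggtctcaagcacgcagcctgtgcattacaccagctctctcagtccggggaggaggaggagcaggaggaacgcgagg

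Of the serotonin channel subunits, HTR3A had the largest fold change among the tested receptor genes. HTR3A is the subunit that every serotonin channel needs. It had 7.25, 5.23 and 4.2 normalized counts in untreated and 54.6, 59.7 and 48.8 in VPA-treated libraries. The lowest treated value was several times the highest untreated one, and HTR3A rose 9.58-fold (log2 fold change 3.26, SE 0.27, adjusted p = 8.01e-10 in edgeR). HTR3B, which joins HTR3A in the mixed channel and lies 26028 bases from it on chromosome 11, had 3, 0 and 1 counts in untreated and 5, 6 and 5 in VPA-treated libraries. Its groups did not overlap, but at these counts the ratio of 3.68 had an interval of 1.19 to 15.1. HTR3C and HTR3D had at most 1 count in any library and HTR3E had 0.

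Of the 12 listed serotonin receptors that signal through G proteins, 7 were counted and 4 tested. All 4 were up-regulated, beside 12.0% of all tested genes and 29.4% of those with a mean under 50 normalized counts. The summed level of the 12 was 49.3 to 54.9 normalized counts in untreated and 169 to 197 in VPA-treated libraries. HTR6, a Gs-coupled receptor of the brain, had 24.8, 28.3 and 12.6 normalized counts in untreated and 69.95, 87.7 and 84.3 in VPA-treated libraries. All treated values were above all untreated ones, and HTR6 rose 3.66-fold (log2 fold change 1.87, SE 0.21, adjusted p = 7.22e-08 in edgeR). HTR7, also Gs-coupled, had 13.5, 6.28 and 15.7 normalized counts in untreated and 26.8, 38.5 and 29.7 in VPA-treated libraries. It rose 2.66-fold with no overlap (log2 fold change 1.41, SE 0.28, adjusted p = 0.000193 in edgeR), and reads of its pseudogene HTR7P1 (80.7 and 119 normalized counts) may have been set aside or shared with it.

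HTR1B and HTR1D are closely related Gi-coupled receptors that restrain transmitter release and are the targets of the triptan drugs. HTR1D had 10.4, 15.7 and 16.8 normalized counts in untreated and 41.2, 39.5 and 35.4 in VPA-treated libraries. Again all treated values were higher, and HTR1D rose 2.7-fold (log2 fold change 1.43, SE 0.23, adjusted p = 1.7e-05 in edgeR). HTR1B had 4, 1 and 2 counts in untreated and 14, 18 and 20 in VPA-treated libraries. It rose 6.54-fold (log2 fold change 2.71, SE 0.45, adjusted p = 2.02e-05 in edgeR) and its log2 fold change was 3.30 without untreated replicate 1. HTR1F, of the same subfamily, was too low to be tested, with 1, 0 and 1 counts in untreated and 13, 11 and 7 in VPA-treated libraries. All treated libraries of HTR1F lay above the untreated ones, a ratio of 14.2 with an interval of 3.63 to 123. HTR2A, the Gq-coupled target of hallucinogens, had 1, 0 and 1 counts and then 4, 4 and 5. HTR4 had 1 count in all. HTR1A, HTR1E, HTR2B and HTR5A were at 0 in every library, as was HTR2C, which lies on chromosome X, where every gene is listed at 0 in all 6 libraries.

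The windows of HTR6, at chr1:19664625-19664924 on the plus strand, and of HTR1B, at chr6:77463442-77463741 on the minus strand, are shown because both were up-regulated and hold the same number of matches, 2, at different GC contents. HTR6 has a GC content of 79.0% and HTR1B, the lowest of the 10 up-regulated receptor genes with a window, 62.3% (RefSeq, GRCh38.p14).
HTR6: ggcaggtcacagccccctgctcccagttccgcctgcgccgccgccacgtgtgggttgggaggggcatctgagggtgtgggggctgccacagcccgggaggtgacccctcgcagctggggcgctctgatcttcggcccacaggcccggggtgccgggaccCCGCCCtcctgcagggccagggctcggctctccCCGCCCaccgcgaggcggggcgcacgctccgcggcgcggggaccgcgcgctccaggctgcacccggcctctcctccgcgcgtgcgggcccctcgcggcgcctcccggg
HTR1B: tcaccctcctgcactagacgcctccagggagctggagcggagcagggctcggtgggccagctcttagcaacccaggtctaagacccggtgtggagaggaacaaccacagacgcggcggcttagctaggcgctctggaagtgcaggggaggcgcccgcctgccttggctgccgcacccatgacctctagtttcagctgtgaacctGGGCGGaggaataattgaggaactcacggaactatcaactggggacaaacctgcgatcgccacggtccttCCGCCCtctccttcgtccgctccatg

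None of the 5 dopamine receptor genes had enough counts to be tested. DRD2, the Gi-coupled target of antipsychotic drugs, had 8, 3 and 5 counts in untreated and 19, 9 and 17 in VPA-treated libraries. Its lowest treated value was just above its highest untreated one, and the ratio of 2.59 had an interval of 1.43 to 4.90. DRD4 had 8, 2 and 3 counts in untreated and 5, 2 and 4 in VPA-treated libraries, and these overlap. DRD1 and DRD3 had 1 count each over the 6 libraries and DRD5 had 0, which allows up to 0.0532 CPM in untreated and 0.0536 in VPA-treated cells (3 counts over the 3 libraries of each condition, for counting error only).

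**Figure D2:**
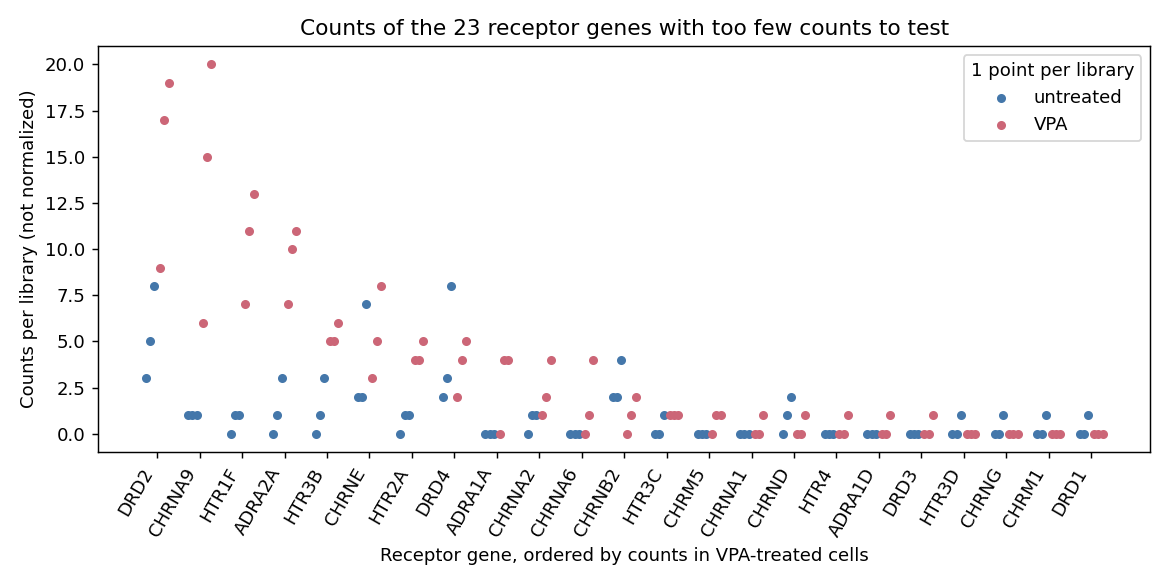
Counts per library, not normalized, of the 23 receptor genes with too few counts to be tested, with 1 point per library, ordered by their counts in VPA-treated cells. CHRNA9, HTR1F and ADRA2A have all VPA points above all untreated points, DRD2 by 1 count, and the 7 genes farthest right have at most 1 count in any library.

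The adrenergic receptors answer adrenaline and noradrenaline. Of 9 genes 8 were counted, 5 tested and 4 up-regulated, beside 12.0% of all tested genes. ADRA1B, the Gq-coupled alpha-1 receptor of the vessel wall and liver, had 20.7, 19.9 and 18.9 normalized counts in untreated and 82.4, 74.2 and 70.8 in VPA-treated libraries. Both groups were tight and far apart, and ADRA1B rose 3.80-fold (log2 fold change 1.93, SE 0.18, adjusted p = 5.83e-09 in edgeR). ADRA1A had 0 counts in untreated and 4, 4 and 0 in VPA-treated libraries, at least 2.45-fold higher over a floor of 3 counts for the group, where the counting interval of the ratio itself began at 1.57, and ADRA1D had 1 count in all.

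The alpha-2 receptors are Gi-coupled and restrain noradrenaline release. ADRA2C had 273, 244 and 215 normalized counts in untreated and 382, 353 and 343 in VPA-treated libraries. The groups did not overlap, and ADRA2C rose 1.47-fold, below the fold threshold (log2 fold change 0.56, SE 0.086, adjusted p = 7.87e-06 in edgeR). ADRA2B had 3, 2 and 3 counts in untreated and 13, 11 and 14 in VPA-treated libraries. It rose 4.22-fold from this low level (log2 fold change 2.08, SE 0.44, adjusted p = 0.000333 in edgeR). ADRA2A was not tested, with 1, 3 and 0 counts in untreated and 10, 7 and 11 in VPA-treated libraries. Its groups did not overlap, a ratio of 6.44 with an interval of 2.25 to 25.2.

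The beta receptors are Gs-coupled and drive the response of heart and fat to adrenaline. ADRB1, the heart receptor, had 3.11, 9.42 and 7.35 normalized counts in untreated and 18.2, 23.1 and 22.98 in VPA-treated libraries. ADRB1 passed the filter only through the VPA-treated libraries, and it rose 3.20-fold (log2 fold change 1.68, SE 0.34, adjusted p = 0.000208 in edgeR). ADRB3, the receptor of fat tissue, had 0 counts.

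**Figure D3:**
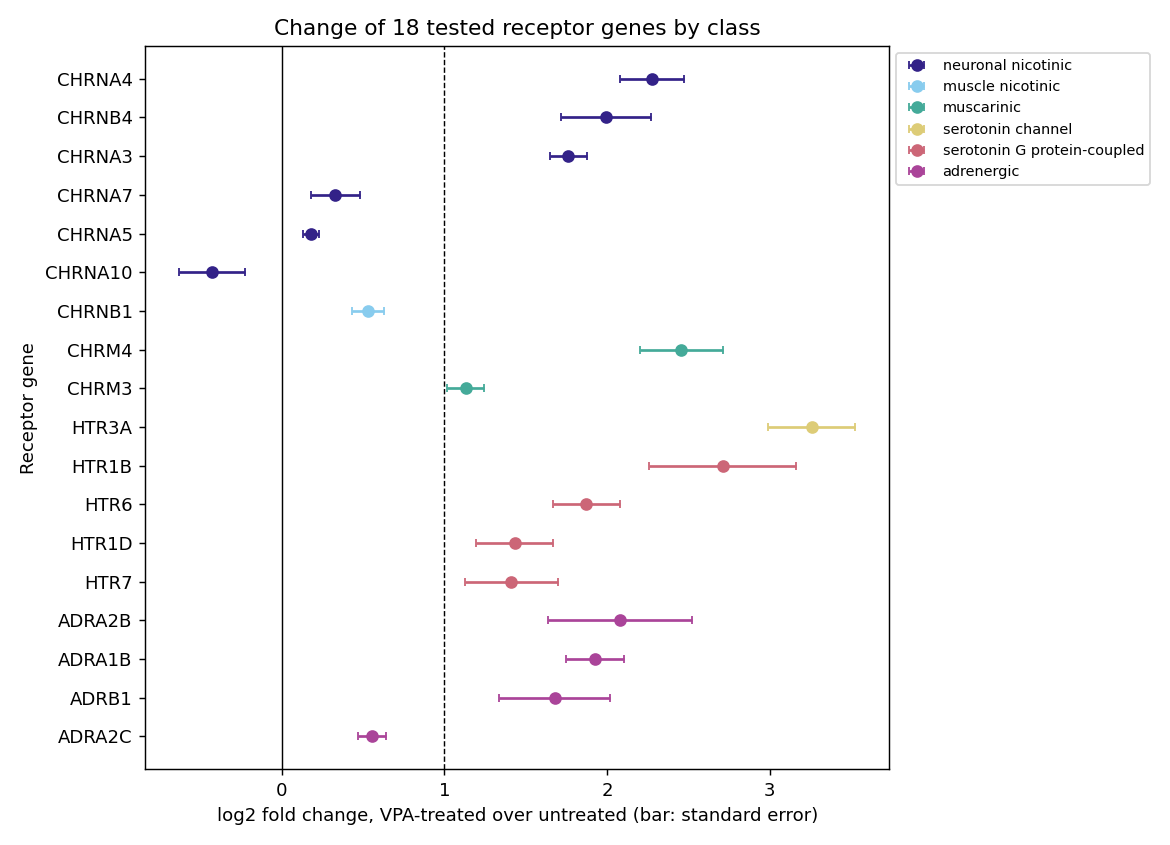
Log2 fold change (VPA-treated over untreated) of 18 of the 19 tested receptor genes, coloured by class, with bars for the standard error and a dashed line at the threshold of 1. HTR3A lies farthest right at 3.26 and CHRNA10 is the only point below 0.

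Grouped by the way the receptors signal, up-regulated genes were found in each tested group. Of the channel subunits 8 of 21 were tested and 4 up-regulated. Of the Gq-coupled receptors 2 of 9 were tested and 2 up-regulated (CHRM3 and ADRA1B). Of the Gi-coupled receptors 5 of 14 were tested and 4 up-regulated, and of the Gs-coupled receptors 4 of 8 were tested and 4 up-regulated. The Gs group includes HTR6, HTR7 and ADRB1. No difference between these groups was tested, and 12.0% of all tested genes were up-regulated. Glutamate and GABA receptor genes, taken as the receptors most like these, gave 13 up-regulated of 19 tested and 47 listed, 0 down-regulated and a median log2 fold change of 1.60. That difference was not tested, and the share is close to the 14 of 19 given above.

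**Figure D4:**
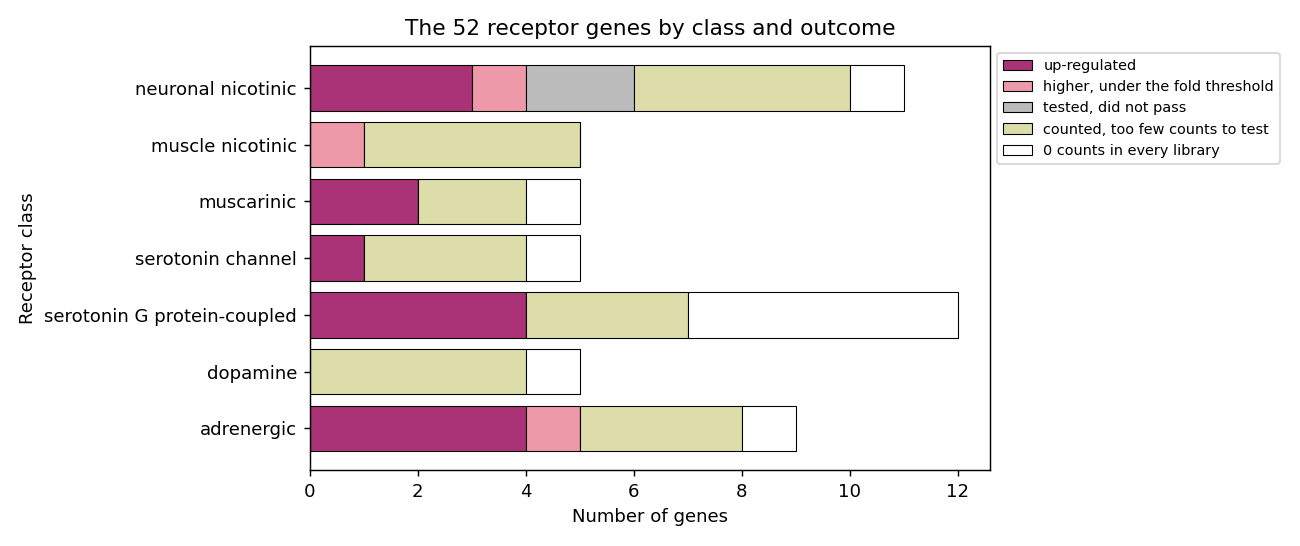
Number of receptor genes per class, split by outcome: up-regulated, higher under the fold threshold, tested without passing, counted but too low to test, or at 0 in every library. The 12 serotonin receptors coupled to G proteins include 4 up-regulated and 5 at 0, and the 5 dopamine receptors include none that could be tested.

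Detection was counted per library. With at least 1 count as detection, the untreated libraries held 31, 27 and 31 of the 52 receptor genes and the VPA-treated ones 34, 36 and 30, ranges that overlap. Over the 3 libraries together 35 and 38 genes were counted, 7 of them with counts in VPA-treated cells alone and 4 in untreated cells alone, and at these levels 1 or 2 counts decide detection. With at least 10 counts the libraries held on average 13.3 genes in untreated and 21.7 in VPA-treated cells. The receptor genes together summed to 1885 to 1928 normalized counts in untreated and 2955 to 2987 in VPA-treated libraries. CHRNA5 alone made up 54.2% to 59.2% and then 40.7% to 41.6% of this sum. Without CHRNA5 the sums were 768 to 866 and then 1725 to 1753.

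As RPKM, counts per kilobase of exon scaled by library size, CHRNA5 was the most abundant receptor gene, at 15.9 ± 0.731 without and 18.1 ± 0.289 with VPA (SD, n = 3 each). ADRA2C followed at 5.98 ± 0.712 and 8.80 ± 0.505, then CHRNB1 at 1.82 ± 0.121 and 2.63 ± 0.21, on the same scale. CHRNA3, at 0.699 ± 0.0725 and 2.38 ± 0.0564, reached a level near CHRNB1 after treatment. HTR3A, at 1.13 ± 0.113 after treatment, came to the level of HTR6, at 1.13 ± 0.132, from 0.115 ± 0.0321. The exon length is that of all GENCODE transcripts of a gene joined, so genes with long alternative ends are understated on this scale.

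Of the 17 receptor genes whose coding sequence lies in a single exon, 8 were tested and 7 up-regulated, and of the 35 with several coding exons 11 were tested and 7 up-regulated. All 17 of the first kind are G protein-coupled, while the 11 tested genes with several coding exons hold 8 channel subunits and 3 G protein-coupled receptors (HTR6, HTR7 and ADRA1B), which were up-regulated. No difference by gene structure was tested, and the share up-regulated over all tested genes was 12.0%. Promoter windows were found for 38 of the 52 genes and for 10 of the 14 up-regulated ones, and CHRNA4, HTR3A and ADRA2B are among those without. The GC content of these 10 windows had a median of 74.5% and ranged from 62.3% to 80.3%. The median was 60.3% in the 21 windows of other receptor genes with counts, 61.0% in the 7 of receptor genes at 0, and 58.3% in 27305 windows of all genes. CpG dinucleotides numbered 31.5 per window in the median of the 10, against 14 for all genes. The pattern GGGCGG was found on either strand in 8 of the 10 (80.0%) and in 44.6% of all windows. The exceptions among the 10 were CHRM3 and ADRB1. It was also found in 47.6% of the 21 windows of other receptor genes with counts and in 42.9% of the 7 at 0. CHRNA7, which did not pass, had 6 matches, and DRD5, with 0 counts, had 3. TGACG, the core of the cyclic AMP response element, was found in 1 of the 10 (ADRB1, 10%) and 25.0% of all windows, and the full TGACGTCA, which contains it, in 0 and 1.98%. CANNTG, the E box, was found in 7 of the 10 (70.0%) and 68.9% of all. The 2 parts of the element bound by REST, a repressor of neuronal genes, were searched as TTCAGCACC, found in 0 of the 10 and 0.403% of all, and GGACAG, found in 3 (30.0%) and 20.5%. REST RNA itself had 714 ± 49.8 normalized counts without and 679 ± 44 with VPA (SD, n = 3 each; adjusted p = 0.319 in edgeR). These matches are descriptions of the letters in each window.

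**Figure D5:**
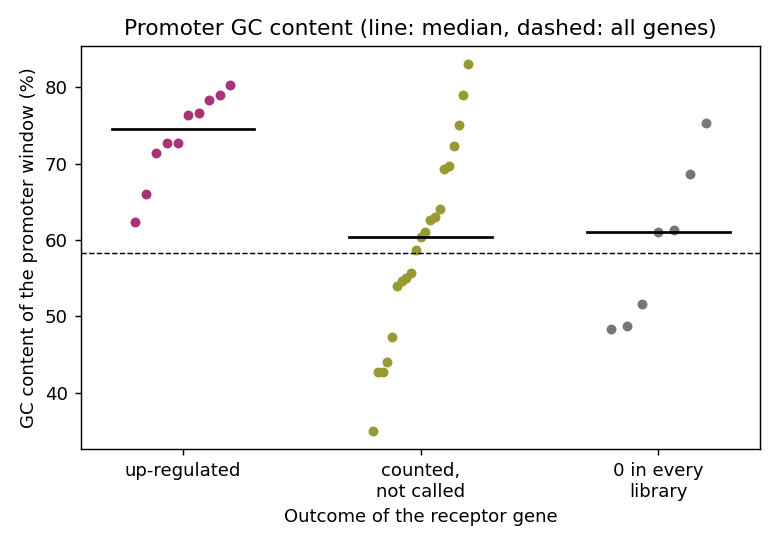
GC content (%) of the 300-base promoter windows of 38 receptor genes by outcome, with 1 point per gene, solid lines at the group medians and a dashed line at the median of all genes. The up-regulated genes lie between 62.3% and 80.3%, all above the dashed line at 58.3%, and the other groups spread to both sides of it.

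The genes that make, move, break down and respond to these transmitters were read as a fixed list of 68. Of these 44 were tested, 8 up-regulated and 0 down-regulated, with 24 higher and 7 lower at the adjusted p alone and a median log2 fold change of 0.28, beside the 12.0%, 0.503%, 32.9% and 30.0% of all tested genes given above for these calls. The 8 genes are those of the enzymes ACHE and BCHE, the transporter SLC29A4, the receptor partners LYNX1, LYPD6, LYPD6B and DOK7, and the G protein subunit GNAO1. The breakdown enzymes of acetylcholine both rose. ACHE, the acetylcholinesterase, had 24.0 ± 3.66 normalized counts without and 173 ± 18.2 with VPA (SD, n = 3 each) and a log2 difference of 2.84 (SE 0.16, adjusted p = 9.12e-13 in edgeR). BCHE, the related butyrylcholinesterase, had 129 ± 10.3 and 291 ± 6.65, a log2 fold change of 1.17 (SE 0.09, adjusted p = 2.81e-10). MAOA and MAOB, which break down amines, lie on chromosome X and are listed at 0.

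Several of the genes for transmitter synthesis had few or no counts. CHAT, the enzyme that makes acetylcholine, had 0, 0 and 1 counts in untreated and 5, 2 and 3 in VPA-treated libraries, and DBH and TPH2 had 0. TPH1, the other enzyme that starts serotonin synthesis, was tested, at 26.8 ± 5.56 normalized counts without and 26.9 ± 4.11 with VPA (SD, n = 3 each; adjusted p = 0.989 in edgeR). SLC18A3, the vesicular acetylcholine transporter that lies within CHAT, had 0 counts in untreated and 7, 12 and 10 in VPA-treated libraries, at least 8.89-fold higher over the same floor of 3 counts, with a counting interval that began at 6.78. Of the 11 synthesis genes 5 were tested, GCH1 was higher and PTS lower, both of which serve the cofactor of amine synthesis. Of the 9 uptake and storage genes only SLC29A4, a membrane monoamine transporter, was tested, and its level went from 263 ± 36.5 up to 609 ± 56.4 normalized counts (n = 3 each, SD; log2 fold change 1.21, adjusted p = 3.43e-10 in edgeR).

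Among 14 genes for the assembly and clustering of the channels, 9 were tested. Of these 6 were higher and 1 lower at the adjusted p alone, beside 32.9% and 30.0% of all tested genes. LYNX1, LYPD6 and LYPD6B, small proteins that modulate nicotinic receptors, had log2 fold changes of 1.40, 1.10 and 1.09, and LYPD1, of the same family, had -0.51 (adjusted p = 4.09e-06 in edgeR). DOK7 had 1.25, and AGRN and LRP4, which work with it to cluster the muscle receptor, had 0.80 and 0.44. RAPSN and MUSK, the other parts of that machinery, had at most 3 counts in any library. RIC3, a chaperone of nicotinic receptors, had a log2 fold change of 0.09 (SE 0.30, adjusted p = 0.812).

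Among the G proteins, GNAO1, the Gi-type subunit that predominates in neurons, had 83.2 ± 8.89 normalized counts without and 680.3 ± 23.7 with VPA (SD, n = 3 each) and a log2 difference of 3.03 (SE 0.086, adjusted p = 2.85e-17 in edgeR). GNAZ and GNAL, a Gs-type subunit, were higher below the fold threshold at 0.88 and 0.38, and GNAS, GNAI3 and GNA11 were lower, at -0.27, -0.29 and -0.22 on the log2 scale. Of the 7 receptor kinases and arrestins 4 were higher (GRK3, GRK5, ARRB1 and ARRB2), 2 were lower (GRK2 and GRK6), and none passed the fold threshold. GRK5 had the largest of these changes, at 0.81 on the log2 scale. Over all tested genes 32.9% were higher and 30.0% lower at the adjusted p alone.

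The number of receptor genes called depended on the filter and the fold test more than on the scaling. With no filter on low counts, edgeR called 19 of the 42 counted genes up-regulated, among them CHRNA9, HTR1F, HTR2A, DRD2, ADRA1A and ADRA2A, against 9.56% of all genes tested that way. DESeq2 called 16, among them CHRNA9, HTR1F and ADRA2A, against 10.1% of genes with an adjusted p. With at least 10 counts asked of every library, 7 of 12 receptor genes were called, against 8.49%. A test for a change beyond the fold threshold itself (glmTreat) called 9 of 19, against 7.51%, and CHRM3, HTR1D, HTR7 and ADRB1 were among those lost.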

How the data were processed

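RNA from 6 libraries of HEK293T cells, 3 untreated and 3 in VPA, was analysed. The libraries were strand-specific mRNA libraries sequenced in pairs. Read cleaning by the authors used SOAPnuke and alignment to hg38 used STAR (2.7.10b in the submitters' processing notes), and they deposited raw counts per gene from htseq-count (HTSeq 2.0.1 in those notes). The gene annotation and strand setting of the counting are not given in the sources used here. Reads with several alignments were set aside in the counting (2.81% to 2.92% of reads listed), as were ambiguous reads (1.97% to 2.10%) and reads off any gene (6.80% to 7.69%), which lowers the counts of genes with close copies or overlaps.

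From the counts, 15298 of 47470 genes passed filterByExpr (count minimum 10) and entered a robust quasi-likelihood fit in edgeR 4.0.16 (R 4.3.3) after TMM scaling, with condition as the only factor and 0.125 as prior count, and with Benjamini-Hochberg adjustment over all of them. The biological coefficient of variation was 3.83%. Standard errors were obtained as the size of the log2 fold change over the square root of F. Untested genes are given as counts with the ratio of summed CPM and its exact 95% interval, which covers counting error only. Replicates differed by more than sampling noise (chi-square per gene 1.62 to 4.63). The script was tested on simulated counts. The fold and FDR thresholds are those of the study.

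Alternatives were DESeq2 1.42.0, other scalings and filters, a prior count of 2, an FDR of 0.01, glmTreat, a block for the replicate number, and each library left out in turn. Coordinates and promoter windows are from RefSeq (GRCh38.p14, 52 of 52 genes matched by symbol) and exon lengths from GENCODE. The values of 1 tested gene are not reported here. The other tested receptor genes were named, and untested ones where their counts bear on a class. The rule for the members uses symbols only, but the choice of this receptor group, the gene lists and the tests were made with earlier results of these data known. ChIP-seq and Hi-C data were not analysed here.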

Additional observations from a re-analysis of the deposited data

How the results depend on the processing

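Depth limits the receptor results, since 23 of the 42 counted receptor genes had too few counts to be tested. Of 316 comparisons of the 19 tested genes with an alternative, 305 kept the direction and the up-regulated call or its absence. In 11 the call was lost, and 0 reversed. Crossings of the adjusted p threshold alone, such as those of CHRNA7 and CHRNA10, are not counted as changes here. The 316 also leave out up-regulated genes that were not tested with at least 10 counts asked of every library. These were CHRNB4, CHRM4, HTR3A, HTR1B, HTR7, ADRA2B and ADRB1. The count of 14 up-regulated receptor genes was 7 with at least 10 counts in every library and 9 with glmTreat, where fewer genes were tested or the test asked for more. Leaving out each library gave 13 to 17. The 13 were of 19 tested without VPA replicate 1, and the 17 of 22 tested without VPA replicate 2. Of all genes tested in these fits 12.1% and 12.2% were up-regulated. A prior count of 2 gave 13. The count was 14 under every scaling, while the median over all genes tested, on the log2 scale, went from 0.0058 to -0.0081 (DESeq2 size factors), 0.071 (upper quartile), 0.14 (library totals) and 0.28 (ribosomal protein genes). No alternative gave a down-regulated receptor gene, and CHRNA10 was lower at the adjusted p alone without VPA replicate 3. With at least 10 counts as detection, the mean number of genes detected per library was 13.3 in untreated and 21.7 in VPA-treated cells.

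With the replicate block the fit gave 14 up-regulated and 0 down-regulated receptor genes and 18 higher at the adjusted p alone, the added gene being CHRNA7 (adjusted p = 0.0427 in edgeR). The labels do not say whether libraries with the same number belong together. Across genes, the deviations of same-numbered libraries had r values of 0.14, 0.021 and 0.080, and other pairs had -0.11 to 0.031. Untreated replicate 2 had a slightly higher r with VPA replicate 3 (0.031) than with VPA replicate 2 (0.021). Every other library correlated best with its own number. These low values do not settle whether the libraries are paired.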
